A study of Drosophila melanogaster with 30 samples.

Results

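The genes described here are 9 of the 17704 genes listed in both datasets, chosen by symbol as genes of the perineurial and subperineurial glia, the cell layers of the fly blood-brain barrier. They are moody, Mdr65, Tret1-1, Indy, loco, Gli, Nrx-IV, kune and Nrg. The list wrote Nrg as nrg, and its row was found with the case of letters ignored; the other 8 symbols matched exactly. RNA was sequenced from heads of adult Drosophila melanogaster aged 22 to 31 h after eclosion, in 30 libraries that form 6 groups of 5.

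Bchs (Blue cheese, a large BEACH-domain protein of the autophagy field) was overexpressed from the transgene UAS-bchs::HA. In the glia dataset the overexpressing flies carried repo-Gal4, a driver active in nearly all glia, with UAS-bchs::HA, and the controls carried repo-Gal4/+ or UAS-bchs::HA/+. In the neuron dataset the overexpressing flies carried nSyb-Gal4, a driver active in neurons, with UAS-bchs::HA, and the controls carried nSyb-Gal4/+ or UAS-bchs::HA/+. The repo-Gal4 driver is not restricted to barrier glia, and the labels do not give the sex of the flies. Neuron-dataset RNA was purified with a column kit alone, while samples of the glia dataset were first homogenised in Trizol, so extraction and dataset cannot be told apart. Nothing in the labels says that the 5 libraries of a group came from separate crosses, so the p-values measure the spread between these libraries.

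The insect blood-brain barrier is a sheath of glia around the brain. The outer perineurial glia take up sugars and other nutrients from the haemolymph, and the large flat subperineurial glia beneath them seal the gaps between cells with septate junctions and pump out foreign compounds. Moody is a G protein-coupled receptor of the subperineurial glia that is needed for a tight barrier, and loco encodes a regulator of G protein signalling that acts with it. Several of the genes are also made elsewhere in the head: Nrg in neurons, Indy and Tret1-1 in fat body, and the septate junction genes in epithelia. In whole-head RNA, fewer cells of a type and less RNA per cell cannot be told apart.

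Counts in genes ranged over the glia libraries from 28685786 to 84208964, and over the neuron libraries from 44017794 to 60266009. The transgene showed in the labels' direction, with bchs at 1207 ± 50.3 CPM (read counts per 1000000 counts in genes; mean ± SD, n = 5) in glial overexpression against 155 ± 67.3 in repo-Gal4 and 167 ± 83.9 in UAS controls. With nSyb-Gal4, bchs stood at 428 ± 97.6 CPM against 102 ± 16.6 and 91.3 ± 10.05. Photoreceptor, neuronal and glial markers were present in every library, among them ninaE from 14178 CPM and the pan-glial factor repo from 49.8 CPM upwards. The libraries of UAS control 2 of the glia dataset and of repo-Gal4 control 3 stood apart. Long transcripts were scarce in them, with a slope of log2 level on log2 transcript length of -0.92 and -0.61, against -0.23 to 0.06 in the other 13 glia libraries and -0.07 to 0.09 in the neuron dataset. Marker levels differed in them too. The summed level of 6 neuronal markers was 355 and 425 CPM there, beside medians of 5099 CPM in UAS and 5103 CPM in repo-Gal4 controls. For 4 photoreceptor markers (ninaE, trp, norpA, inaD) it was 32866 and 25754 CPM, beside medians of 20951 and 21703 CPM. The glia results that rest on those libraries are given with and without them.

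All 9 genes passed the filter on low counts in both datasets, with 491 to 29803 counts per gene and library. Per kilobase of exon, the order of the mean level over the 15 glia libraries was Tret1-1 at 91.1 CPM per kb, Indy at 51.3, Mdr65 at 34.0, moody at 32.9, kune at 29.6, Nrg at 25.0, Nrx-IV at 21.9, Gli at 13.3 and loco at 7.85. The sugar and citrate transporters thus stood at the top and loco at the bottom. In the neuron dataset the order began with Tret1-1 at 98.8 and Indy at 67.1 CPM per kb, then kune at 34.8, and ended again with Gli at 11.96 and loco at 8.07. Neighbours in the middle of the glia order, from Mdr65 to Nrx-IV, overlapped in level. The main change of order was in kune, which stood below Mdr65 and moody in the first and above them in the second.

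**Figure D1:**
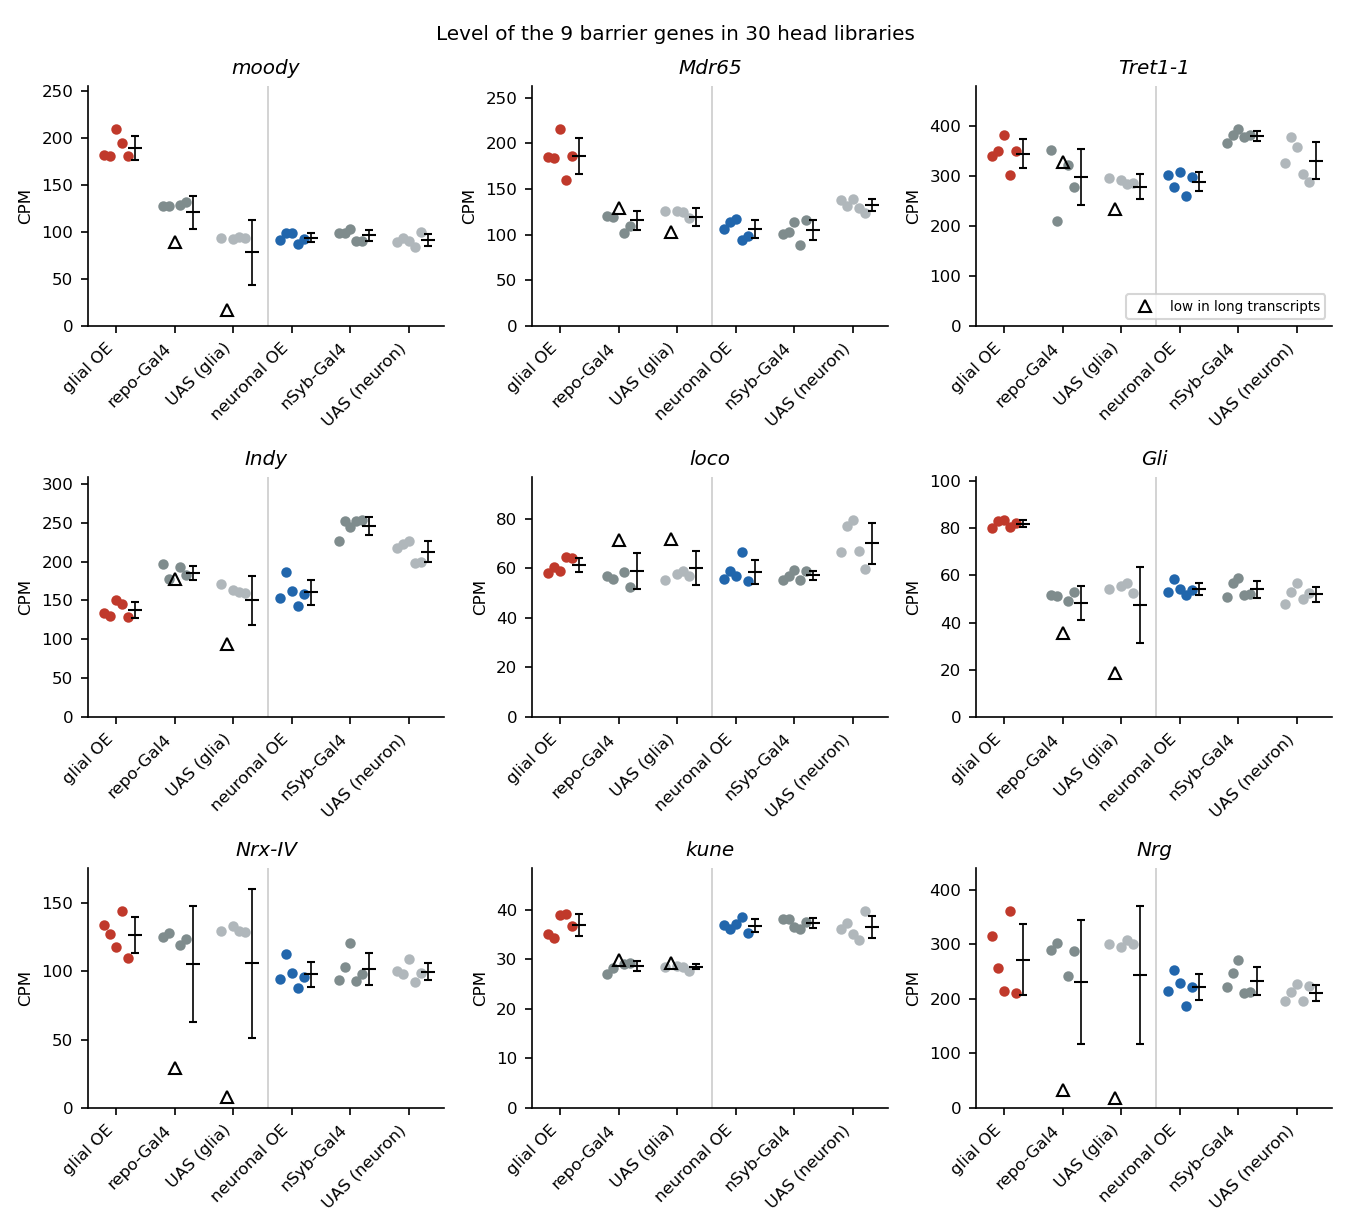
Level in CPM (linear axis from 0) of each of the 9 genes in the 6 groups, with 1 point per library and the mean ± SD of 5 libraries beside it; triangles mark UAS control 2 of the glia dataset and repo-Gal4 control 3. In moody, Mdr65, Gli and kune the 5 glial overexpression (OE) libraries lie above all 10 controls of their dataset.

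With Bchs overexpressed in glia, moody, Mdr65, Gli and kune stood above all 10 controls in each of the 5 libraries. That is 4 of 9 genes, where 1.01% of all 11149 tested genes lay above all 10 controls. Mdr65 was the only one of the 9 that passed the test against both controls in the fit of all 15 libraries, being 1.61-fold and 1.56-fold higher. Without UAS control 2 and repo-Gal4 control 3, moody, Mdr65, Gli and kune passed against both controls as higher and Indy as lower. Genes were tested with edgeR's quasi-likelihood test and Benjamini-Hochberg adjustment over all tested genes at 0.05.

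The receptor gene moody lies on chromosome X, 2044292 to 2050120, minus strand of the BDGP6 assembly, and its longest transcript has 3782 nt. It measured 182, 180, 209, 194 and 181 CPM in the glial overexpression libraries, 128, 127, 89.3, 128 and 132 CPM in the repo-Gal4 controls, and 93.1, 16.3, 92.7, 94.4 and 93.8 CPM in the UAS controls. Every overexpression library was above every control, and the lowest control value of each group was the library short of long transcripts. The log2 fold change of moody over all 15 libraries was 0.65 ± 0.35 (SE) against repo-Gal4, with an adjusted p of 1.00 from edgeR, and 1.28 ± 0.35 against UAS, with an adjusted p of 0.122 from edgeR. Neither passed the threshold. Moody without the 2 libraries rose by 0.56 ± 0.05 (log2, SE; edgeR adjusted p = 4.15e-05) and 1.03 ± 0.05 (4.91e-08), past the test with a smaller fold change and a much smaller error.

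The 2 controls themselves differed in moody. The 4 remaining repo-Gal4 libraries averaged 129 ± 1.88 CPM and the 4 remaining UAS libraries 93.5 ± 0.723 CPM, with no overlap. That difference was 0.47 ± 0.05 on the log2 scale (edgeR adjusted p = 0.000144), in a comparison of the controls that called 4.35% of all genes; none of the other 8 genes was called in it. With all 15 libraries 0 of the 9 genes were called between these controls by edgeR, 0 had an unadjusted p under 0.05, DESeq2 called 0 too, and the share called among all genes was 0.888%. The order glial overexpression, repo-Gal4, UAS thus held for moody in those 13 libraries, and in the neuron dataset all 15 libraries lay between 83.7 and 103 CPM.

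Mdr65 encodes an ABC transporter of the P-glycoprotein type that exports foreign compounds at the barrier (chromosome 3L, 6240500 to 6245746, minus strand). Its level was 185, 184, 215, 160 and 186 CPM in glial overexpression, 120, 119, 129, 102 and 109 CPM in repo-Gal4 controls, and 126, 103, 126, 125 and 118 CPM in UAS controls. Overexpression did not overlap with either control group. Repo-Gal4 control 3 was the highest and UAS control 2 the lowest library of its group. Mdr65 rose by 0.68 ± 0.14 (log2, SE; edgeR adjusted p = 0.0440) against repo-Gal4 and by 0.64 ± 0.14 (0.0399) against UAS. It was 1 of 9 genes called in each comparison, where 0.484% of all genes were called against repo-Gal4, 1.13% against UAS and 0.161% against both. These calls sat close to the threshold: leaving out any 1 of 13 libraries ended both calls, which were kept only without repo-Gal4 control 3 or UAS control 2, with log2 fold changes of 0.62 to 0.73 against repo-Gal4 and 0.57 to 0.67 against UAS over the 15 fits. Without both of those libraries Mdr65 was higher by 0.73 ± 0.08 (edgeR adjusted p = 0.000140) and 0.60 ± 0.08 (0.000250).

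Gli encodes Gliotactin, a cholinesterase-like membrane protein found where the corners of cells meet at tricellular junctions (chromosome 2L, 15756002 to 15762758, minus strand). It stood at 80.0, 83.2, 83.4, 80.5 and 82.3 CPM in glial overexpression, at 51.6, 51.4, 35.8, 49.2 and 53.1 CPM in repo-Gal4 controls, and at 54.0, 18.7, 55.6, 56.8 and 52.5 CPM in UAS controls. The overexpression libraries formed a tight group far above the controls, whose highest value was 56.8 CPM. Over all 15 libraries the log2 fold changes of 0.76 ± 0.24 (SE) and 0.78 ± 0.24 did not pass edgeR's test, with adjusted p of 0.406 and 0.195. Gli rose without the 2 libraries by 0.68 ± 0.04 (edgeR adjusted p = 7.21e-07) and 0.59 ± 0.04 (8.28e-07), the change known with the smallest error among the 9 genes.

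The claudin gene kune encodes a septate junction protein in a single short transcript of 1060 nt (chromosome 2R, 5671741 to 5672800, plus strand). Its level was 35.1, 34.3, 39.0, 39.1 and 36.7 CPM in glial overexpression, 26.9, 28.3, 29.8, 29.0 and 29.2 CPM in repo-Gal4 controls, and 28.5, 29.2, 28.7, 28.4 and 27.7 CPM in UAS controls. All 10 controls lay in a narrow band below the overexpression libraries, the ones short of long transcripts included. The log2 fold changes of 0.36 ± 0.09 (SE) and 0.37 ± 0.09 missed the threshold in edgeR's fit of all 15 libraries (adjusted p = 0.128 and 0.0663), passed it in DESeq2 on the same libraries (6.47e-06 and 1.88e-05), and passed it in edgeR without the 2 libraries at 0.38 ± 0.05 (0.000381) and 0.39 ± 0.05 (0.000162).

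Of the transport genes, Indy encodes a carrier of citrate and of dicarboxylates (chromosome 3L, 18828632 to 18846267, minus strand). Its level was 134, 130, 151, 145 and 129 CPM in glial overexpression, 197, 178, 178, 193 and 183 CPM in repo-Gal4 controls, and 171, 94.3, 163, 160 and 160 CPM in UAS controls. The overexpression libraries lay below all repo-Gal4 controls and below 4 of 5 UAS controls, with UAS control 2 lower still. Indy did not pass over all 15 libraries, where its log2 fold changes were -0.43 ± 0.17 (SE; edgeR adjusted p = 0.717) and -0.12 ± 0.17 (0.866). Without the 2 libraries it fell by 0.44 ± 0.06 and by 0.24 ± 0.06 on the log2 scale (edgeR adjusted p = 0.000629 and 0.0159). With the length slope of each library added to that fit as a covariate, Indy no longer passed against the UAS control (log2 fold change -0.21, edgeR adjusted p = 0.1496).

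Tret1-1, which encodes a trehalose transporter of the perineurial glia (chromosome 2R, 11665768 to 11674782, plus strand), ranged from 302 to 382 CPM in glial overexpression, from 210 to 353 in repo-Gal4 controls and from 234 to 297 in UAS controls. It overlapped with the first control group and lay just above the second. Its log2 fold changes of 0.21 ± 0.16 (SE) and 0.31 ± 0.16 did not pass edgeR's test, with adjusted p of 1.00 and 0.763, nor did those of 0.25 ± 0.12 and 0.26 ± 0.12 without the 2 libraries. For loco (chromosome 3R, 22619968 to 22639387, minus strand), the signalling partner of moody, the 5 overexpression libraries at 58.3 to 64.7 CPM lay inside the range of both control groups, 52.4 to 71.6 and 55.2 to 72.1 CPM. The highest control of each group was the library short of long transcripts. Without these 2 libraries the controls spanned 52.4 to 58.5 CPM in repo-Gal4 and 55.2 to 58.8 CPM in UAS. All overexpression libraries except library 1, at 58.3 CPM, lay above both of these ranges. The log2 fold changes of loco were 0.06 ± 0.12 (SE) and 0.03 ± 0.12 over all 15 libraries, and 0.14 ± 0.05 and 0.11 ± 0.05 without the 2 libraries, none of which passed edgeR's test. An antisense RNA gene, asRNA:CR43474, overlaps an exon of loco and held 0 to 12 counts per glia library, against 1721 to 5646 for loco.

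Nrx-IV and Nrg encode long cell adhesion proteins of the septate junction, of the neurexin and the L1 family. Nrx-IV (chromosome 3L, 12146519 to 12156990, plus strand) measured 110 to 144 CPM in glial overexpression, and all but the 2 libraries short of long transcripts lay between 119 and 133 CPM among the controls. Nrg (chromosome X, 8517373 to 8555170, plus strand) measured 211 to 361 CPM in glial overexpression and 243 to 308 CPM in the same 8 controls. In both genes overexpression and controls overlapped. Without the 2 libraries their log2 fold changes lay between -0.14 for Nrg against UAS and 0.03 for Nrx-IV against repo-Gal4, and edgeR called neither. Over all 15 libraries they lay between 0.15 and 0.27, with an SE of 0.62 for Nrg and 0.54 for Nrx-IV, and edgeR called neither. With the length slope as a covariate over all 15 libraries, Nrg was called at 0.49 (edgeR adjusted p = 0.00170) and 0.42 (0.00275), and Nrx-IV against UAS at 0.56 (0.00391) but not against repo-Gal4 at 0.40 (0.0520). With the covariate and without the 2 libraries Nrg was called at 0.31 (edgeR adjusted p = 0.0182) and 0.30 (0.0270), and Nrx-IV against repo-Gal4 at 0.19 (0.0243) but not against UAS at 0.17 (0.0559). The calls of both genes thus depended on that term.

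**Figure D2:**
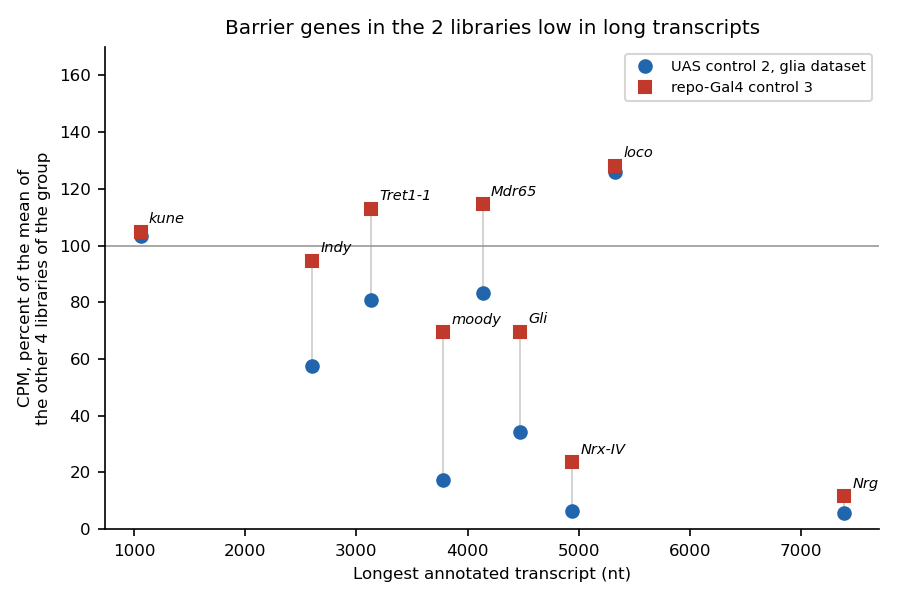
Level of each gene in UAS control 2 of the glia dataset (circles) and repo-Gal4 control 3 (squares) as a percentage of the mean CPM of the other 4 libraries of its group, against the length of the longest annotated transcript in nucleotides (nt); the line marks 100%. Nrg and Nrx-IV fall to 5.77% and 6.23% in UAS control 2, while kune and loco stay above 100%.

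The 2 libraries did not lower the long genes of the list alike. Relative to the other 4 UAS controls, UAS control 2 held 5.77% of the Nrg level, 6.23% of Nrx-IV, 17.4% of moody, 34.1% of Gli and 57.6% of Indy, but 83.4% of Mdr65, 103% of kune and 126% of loco. The longest transcript of loco has 5330 nt and that of Nrx-IV 4940 nt. In repo-Gal4 control 3 the same genes were lowest, with Nrg at 11.6%, Nrx-IV at 23.5%, moody at 69.4% and Gli at 69.7%, and loco was again highest at 128%. The wide errors of moody, Gli, Nrx-IV and Nrg in the fit of all 15 libraries stood beside these values.

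Among the other libraries, the length slope also differed between groups. The 5 glial overexpression libraries had slopes of -0.02, -0.10, -0.14, 0.02 and -0.23 in replicate order, and the 8 remaining controls -0.03 to 0.06. Summed levels of the 6 neuronal markers (elav, nSyb, Syt1, brp, para, cac) were 3259, 2033, 1214, 4901 and 1400 CPM in glial overexpression, with medians of 5103 CPM in repo-Gal4 and 5099 CPM in UAS controls; none of the 6 was at 0. With the length slope as a covariate, moody, Mdr65, Gli and kune were called higher against both controls in the fit of all 15 libraries, where 2.58% of all genes were, and in the fit without the 2 libraries, where 1.25% were. Beyond those fits, the part of the slopes and of the neuronal levels in the results was not tested.

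The median log2 fold change of the 9 genes was 0.27 against repo-Gal4 and 0.31 against UAS, beside -0.02 and -0.09 over all 11149 genes. In the fit without the 2 libraries 5 of 9 genes were called against both controls, 4 higher and 1 lower, where 3.97% of all 11129 genes tested were called, 2.97% as higher and 1.01% as lower. The median log2 fold change of the 9 was 0.25 and 0.26 in that fit, beside 0.03 and 0.03 over all genes. The share of all genes called was 6.35% against repo-Gal4 and 17.2% against UAS in that fit.

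**Figure D3:**
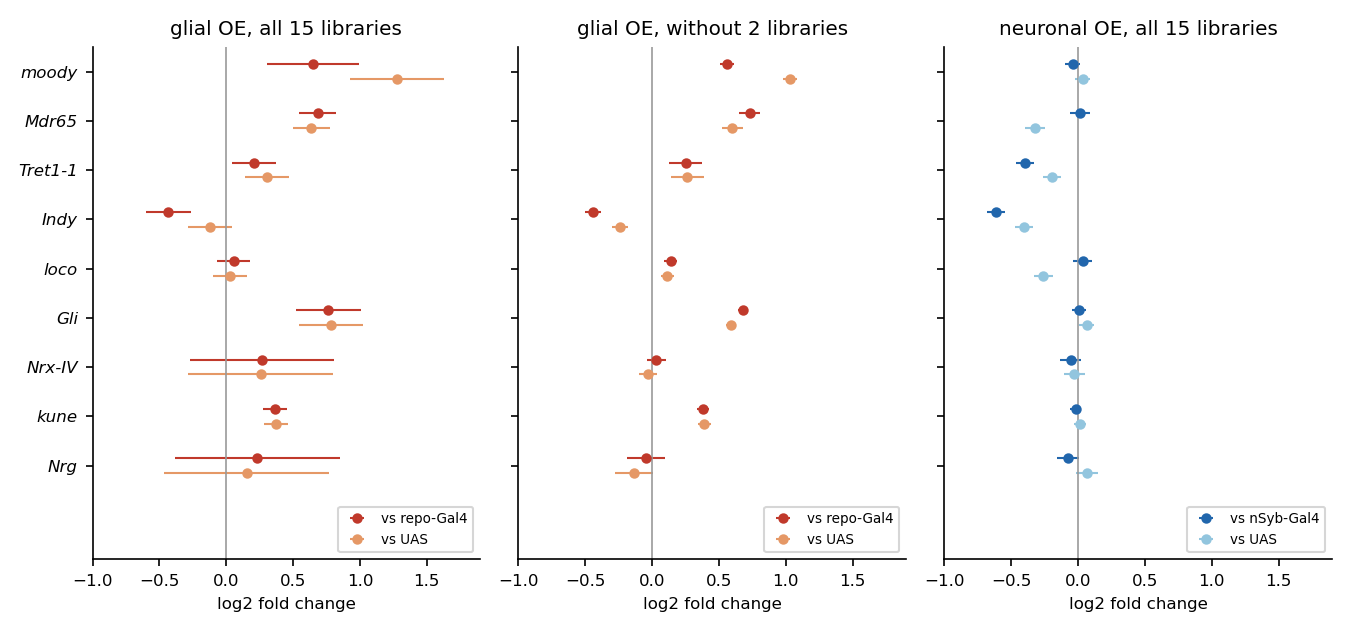
Log2 fold change of the 9 genes with error bars of 1 SE, from edgeR: glial overexpression (OE) with all 15 libraries (left), glial overexpression without UAS control 2 and repo-Gal4 control 3 (middle), and neuronal overexpression (right). Points left of the line at 0 are lower in overexpression; the bars of moody, Gli, Nrx-IV and Nrg shorten in the middle panel.

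With Bchs overexpressed in neurons, the transporter genes Indy and Tret1-1 fell against both controls and none of the 4 junction genes passed edgeR's test. Mean Indy was 1.53 times as high in the nSyb-Gal4 control as in overexpression. Its level was 154, 186, 162, 143 and 158 CPM in neuronal overexpression, 227, 252, 245, 252 and 253 CPM in nSyb-Gal4 controls, and 217, 223, 227, 198 and 199 CPM in UAS controls. All 5 overexpression libraries lay below all 10 controls, as for 4% of all 10778 tested genes. Indy fell by 0.62 ± 0.07 (log2, SE; edgeR adjusted p = 7.89e-06) against nSyb-Gal4 and by 0.41 ± 0.07 (0.000206) against UAS, and no library left out ended either call.

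Tret1-1 measured 302, 278, 308, 261 and 297 CPM in neuronal overexpression, 367, 382, 394, 379 and 382 CPM in nSyb-Gal4 controls, and 326, 379, 359, 304 and 288 CPM in UAS controls. It lay below every nSyb-Gal4 library but overlapped with the UAS controls. Tret1-1 fell by 0.40 ± 0.07 (log2, SE; edgeR adjusted p = 0.000888) against nSyb-Gal4 and by 0.20 ± 0.07 (0.0367) against UAS. The call against UAS was lost when any of 8 of the 15 libraries was left out (neuronal overexpression 1, 2, 4 or 5, nSyb-Gal4 control 3, or UAS control 1, 2 or 3), with log2 fold changes of -0.23 to -0.13 over the 15 fits, and with median-ratio scaling (edgeR adjusted p = 0.0519).

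Mdr65 and loco did not separate neuronal overexpression from its driver control. Mdr65 was at 106 ± 9.83 CPM (SD, n = 5) in neuronal overexpression, 105 ± 10.9 in nSyb-Gal4 and 132 ± 6.42 in UAS controls, and loco at 58.5 ± 4.81, 57.2 ± 1.85 and 70.1 ± 8.09 CPM. Both were lower than in the UAS control in overexpression, by 0.32 ± 0.07 and 0.26 ± 0.07 (log2, SE; edgeR adjusted p = 0.00339 and 0.00965), and in nSyb-Gal4, by 0.34 ± 0.07 and 0.29 ± 0.07 (0.00384 and 0.00739). Tret1-1 and Indy, by contrast, were higher in nSyb-Gal4 than in UAS controls by 0.20 ± 0.07 and 0.21 ± 0.07 (edgeR adjusted p = 0.0441 and 0.0296), and both calls were lost in part of the leave-one-out fits.

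In counts, 2 of 9 genes were called against nSyb-Gal4, where 16.5% of all genes were called, 4 of 9 against UAS, where 38.6% were, and 4 of 9 between these controls, where 25.6% were. The 2 genes called against both controls, Indy and Tret1-1, were both lower, and stand beside 10.2% of all genes called in either direction and 5.43% called lower. The median log2 fold change of the 9 genes was -0.04 and -0.03, beside 0.00 and -0.01 over all genes.

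For moody, Gli, Nrx-IV, kune and Nrg the 3 groups of the neuron dataset overlapped. Their means in neuronal overexpression, nSyb-Gal4 and UAS were 93.7, 96.3 and 91.5 CPM for moody, 54.3, 54.1 and 52.0 for Gli, 97.9, 102 and 99.7 for Nrx-IV, 36.8, 37.3 and 36.4 for kune, and 221, 233 and 211 for Nrg. The 95% interval of the log2 fold change was -0.15 to 0.07 against nSyb-Gal4 and -0.08 to 0.15 against UAS for moody, and -0.11 to 0.07 and -0.07 to 0.10 for kune. Changes of the size seen with glial overexpression lay outside these intervals.

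The fat body also makes Indy and Tret1-1. The summed level of 8 fat body genes (apolpp, apoLTP, Lsp2, Fbp1, FASN1, AkhR, to, Hsl) was 3119 to 5896 CPM in neuronal overexpression, 6333 to 9889 in nSyb-Gal4 and 5385 to 6910 in UAS controls; none of the 8 was at 0. Against nSyb-Gal4 edgeR called 0 of the 8 higher and 4 lower, where 16.5% of all genes were called in either direction. Against UAS it called 2 higher and 2 lower, where 38.6% of all genes were called. The median log2 fold change of these 8 genes was -0.50 against nSyb-Gal4 and -0.08 against UAS. AkhR, the receptor for adipokinetic hormone, and FASN1, a fatty acid synthase, were lower against both controls, 2 of 8 genes beside 5.43% of all genes. AkhR stood at 44.1 ± 3.25 CPM against 70.0 ± 9.36 and 82.4 ± 8.80, and FASN1 at 1720 ± 447 CPM against 2568 ± 431 and 2354 ± 217. The part of these genes in the falls of Indy and Tret1-1 was not tested. Of 8 markers of other glia, 1 was called lower against both controls and 0 higher, where 5.43% and 4.74% of all genes were. It was the glial nuclear factor repo, at 60.2 ± 2.30 CPM in neuronal overexpression against 69.1 ± 4.83 and 74.1 ± 4.89 (edgeR adjusted p = 0.0207 and 0.000607). The median log2 fold change of the 8 was -0.13 and -0.14. In the glia dataset edgeR called 0 of these 8 against both controls over all 15 libraries, where 0.161% of all genes were. Without UAS control 2 and repo-Gal4 control 3, wrapper was higher by 0.35 ± 0.09 and 0.69 ± 0.09 (log2, SE; edgeR adjusted p = 0.0361 and 0.000299). That was 1 of 8 higher and 0 lower, where 2.97% and 1.01% of all genes were. The median of the 8 was then -0.08 and -0.12, beside 0.03 over all genes.

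The effects of glial and neuronal overexpression were compared in a fit of all 30 libraries, each effect taken against the mean of its 2 controls. The difference was positive for all 9 genes, with a median of 0.35 beside -0.07 over all 11137 genes. It passed edgeR's test in 2 of 9 genes, where 1.1% of all genes passed: Mdr65 with 0.80 ± 0.12 (log2, SE; adjusted p = 0.000312) and kune with 0.35 ± 0.07 (edgeR adjusted p = 0.0117). In the fit that left out the 2 libraries 6 of 9 passed, with moody at 0.78, Gli at 0.59, Tret1-1 at 0.54 and loco at 0.23 added, but 34.2% of all genes then passed as well. For Tret1-1 the difference joins a positive fold change that did not pass in the glia dataset to a negative one that did in the neuron dataset.

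The UAS control has the same genotype in both datasets. Between them, Indy was lower in the glia dataset by 0.43 ± 0.11 (log2, SE; edgeR adjusted p = 0.0362) and kune by 0.27 ± 0.06 (0.00923), 2 of 9 genes where 3.05% of all were called. With 1 library left out, the Indy call was lost in 20 of 30 fits and the kune call in 15 of 30. For kune the 10 glia controls at 26.9 to 29.8 CPM lay below all 15 libraries of the neuron dataset at 33.8 to 39.7 CPM, and the glial overexpression libraries at 34.3 to 39.1 CPM lay within the latter range. Dataset and extraction cannot be told apart in these values. Without UAS control 2 and repo-Gal4 control 3, 7 of 9 genes and 51.4% of all genes differed between the UAS controls.

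The septate junction holds many more proteins than the 4 of the list. A list of 23 other genes for its core, adhesion and assembly proteins was chosen with earlier results of these data known. Over all 15 libraries of the glia dataset edgeR called 0 of the 23 against either control. Of all genes, it called 0.484% against repo-Gal4 and 1.13% against UAS. The median log2 fold change of the 23 was 0.26 against repo-Gal4, with 20 of 23 positive. Against UAS it was 0.24, with 17 of 23 positive, and the medians over all genes were -0.02 and -0.09. At an unadjusted p under 0.05 edgeR had 4 of the 23 past both controls, where 2.16% of all genes were, and DESeq2 called 3 after adjustment, namely cold, Tsf2 and udt, where it called 0.709% of all genes.

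Without UAS control 2 and repo-Gal4 control 3, 12 of the 23 rose against both controls and 0 fell, where 2.97% of all genes rose. The 12 were crok, cold and crim, members of the Ly6 family needed for septate junction assembly, together with bou of the same family, pasi1 and pasi2, sinu and pck, which are claudins like kune, the adhesion proteins Cont and Lac, the iron-binding Tsf2, and udt. Lac rose from 125 ± 3.53 CPM (SD, n = 4) in repo-Gal4 and 118 ± 2.96 in UAS controls to 156 ± 5.28 in overexpression, a log2 fold change of 0.32 ± 0.04 (SE; edgeR adjusted p = 0.000680) and 0.41 ± 0.04 (5.85e-05). For cold the levels were 21.2 ± 1.66, 21.7 ± 0.896 and 30.5 ± 2.29 CPM, with log2 fold changes of 0.52 ± 0.07 and 0.50 ± 0.07 (edgeR adjusted p = 0.000610 and 0.000384).

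Some broadly expressed genes of the list were not among them. Atpalpha, the sodium pump subunit, had log2 fold changes of -0.68 and -0.71 and dlg1, a scaffold protein also of synapses, -0.67 and -0.61 without the 2 libraries, and edgeR called neither. The 12 genes that rose have transcripts of 703 to 4742 nt, and those other than Cont have at most 2884 nt. With the length slope as a covariate and without the 2 libraries, 9 of the 23 rose against both controls, 6 of them among the 12 (sinu, Cont, Lac, cold, crim, Tsf2), where 1.25% of all genes rose. In the neuron dataset edgeR and DESeq2 each called 0 of the 23 against both controls, where DESeq2 called 11.2% of all genes, and 1 had an unadjusted edgeR p under 0.05 against both, as 16.9% of all genes had.

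**Figure D4:**
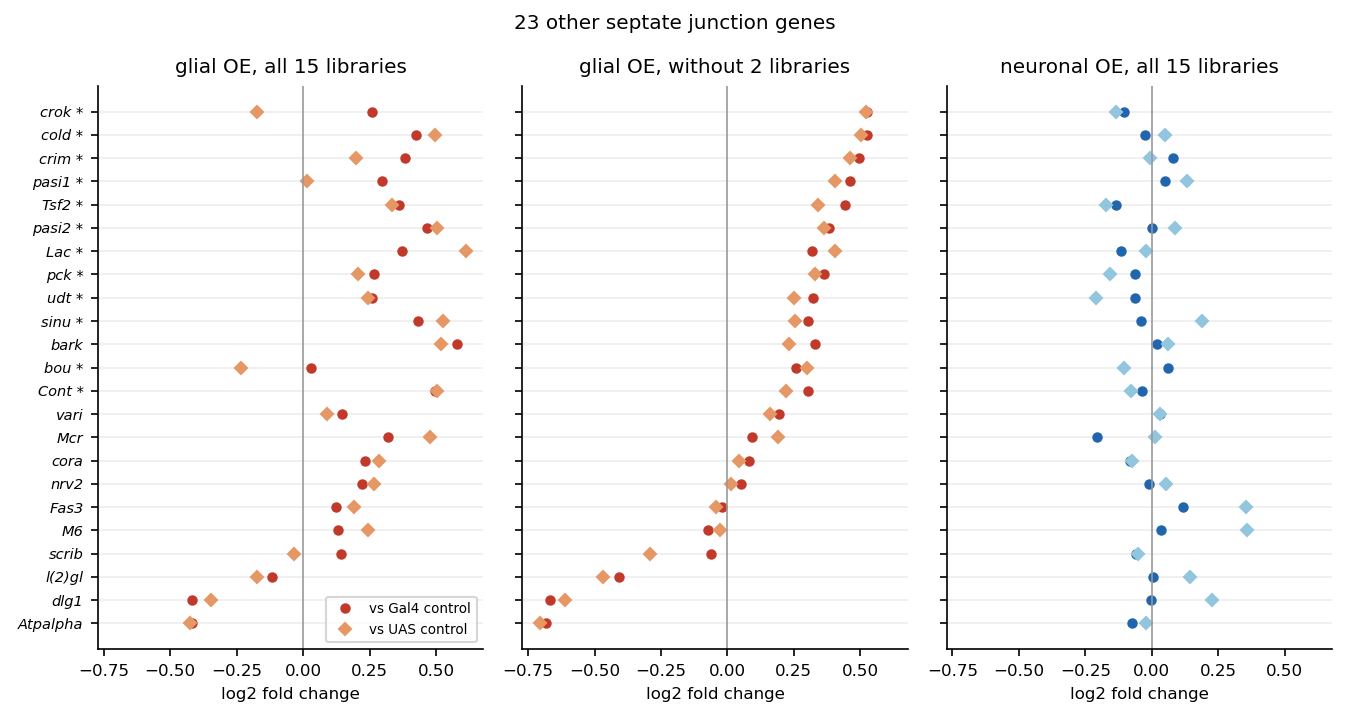
Log2 fold change of 23 other septate junction genes from edgeR against the Gal4 control (circles) and the UAS control (diamonds) of their dataset, for glial overexpression (OE) with 15 libraries (left), glial overexpression without UAS control 2 and repo-Gal4 control 3 (middle) and neuronal overexpression (right). Asterisks mark the 12 genes called against both controls in the middle panel, where all 12 lie right of 0.

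A further list held 8 genes of G protein and kinase signalling linked to moody (Galphao, Galphai, Gbeta13F, Ggamma1, pins, Pka-C1, Pka-R1, Pka-R2). Over all libraries, 0 of the 8 were called against both controls in either dataset by edgeR or DESeq2. An unadjusted edgeR p under 0.05 against both was found for 0 of them. Of all genes, these 3 rules took 0.161%, 0.709% and 2.16% in the glia dataset. In the neuron dataset they took 10.2%, 11.2% and 16.9%. Without the 2 libraries 1 of the 8 was higher in glial overexpression, where 2.97% of all genes were, namely Galphai by 0.21 ± 0.04 and 0.29 ± 0.04 (log2, SE; edgeR adjusted p = 0.0128 and 0.000907). The median log2 fold change of the 8 was -0.59 and -0.56 in that fit, beside 0.03 over all genes; the part of the neuronal marker levels given above in this median was not tested.

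Of 24 other transport genes of barrier glia, 22 were tested. Over all 15 libraries of the glia dataset, 0 of the 22 were called against both controls by edgeR or DESeq2. An unadjusted edgeR p under 0.05 against both was found for 0 of them. Of all genes, edgeR called 0.161% and DESeq2 0.709% against both, and 2.16% had such an unadjusted edgeR p. Without the 2 libraries the sugar transporter gene sut2 and the cation chloride cotransporter gene Ncc69 were higher, and kcc, a potassium chloride cotransporter gene, was lower. These are 2 of 22 higher and 1 of 22 lower, where 2.97% and 1.01% of all genes were, and the median log2 fold change of the 22 was 0.08 and -0.04. In the neuron dataset 2 rose and 4 fell against both controls, where 4.74% and 5.43% of all genes did. Tret1-2, a paralog of Tret1-1, stood at 4.60 ± 0.765 CPM in neuronal overexpression against 2.52 ± 0.518 and 2.46 ± 0.570, opposite to Tret1-1; how reads shared by these paralogs were counted is not given. The lipoprotein receptor gene LpR2 was higher, at 175 ± 16.2 CPM against 147 ± 9.64 and 150 ± 6.35. The genes that fell were pippin, a carbohydrate transporter of barrier glia, with 56.4 ± 2.53 CPM against 73.1 ± 7.45 and 82.8 ± 7.89, together with CG6126, Ncc69 and Mdr49.

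The likeness of 2 genes was measured as the root mean square difference of their log2 CPM, each taken as a deviation from its dataset mean, over the 30 libraries. Of 10678 genes tested in both datasets, those nearest to moody were CG6830 at 0.17, CG6356 at 0.21 and CG12112 at 0.22, where moody itself varied by 0.61. Within the list, moody was nearest to Gli at 0.29, and Nrx-IV to Nrg at 0.20. The 30 libraries share the shortage of long transcripts in 2 of them, which weighs on these values.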

How the data were processed

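The deposited files hold raw read counts per feature for each of 30 libraries, made from TruSeq RNA v2 libraries; STAR, HTSeq and the BDGP6 build are named in the submitters' processing notes, without versions. Use of strand is not given in the sources used here. Symbols, transcript lengths and coordinates came from the Ensembl BDGP6 annotation supplied for reference, which named 17790 of 17869 glia and 17626 of 17753 neuron genes. Counts outside genes (5.62 to 10.5% of a library) stayed out of library sizes and tests.

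Each dataset (15 libraries, 3 groups) was fitted with edgeR 4.0.16 in R 4.3.3 (filterByExpr, TMM, robust quasi-likelihood F test, Benjamini-Hochberg over 11149 and 10778 genes; 11137 in the fit of both). CPM used TMM-scaled library sizes. SE is the log2 fold change over the square root of F. Scripts were tested on simulated data. The 9 genes and all lists were chosen with earlier results of these data known. Of other lists, genes called against both controls were named (at most 12 per dataset), with those called without the 2 libraries named after their values were seen. Alternatives were DESeq2 1.42.0, median-ratio scaling, no filter, replicate number as a block, length slope as a covariate, a fit of 6 groups, the mean of both controls, and libraries left out. The fit with slope covariate and without the 2 libraries, and the alternatives for the septate junction list, were chosen after seeing the data. The lowest chi-square per degree of freedom between replicates of a group was 12.7, so no library was a copy of another in its group. Libraries of different groups were not compared in this way.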

Additional observations from a re-analysis of the deposited data

Results flagged for a closer look

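Of 54 groups of 5 libraries examined (9 genes in 6 groups), 11 held a library whose gap to its nearest neighbour exceeded Dixon's critical value, where chance flags about 5% of groups. All 11 fell in the same 2 libraries, 7 in UAS control 2 of the glia dataset and 4 in repo-Gal4 control 3. In UAS control 2, moody measured 16.3 CPM, Tret1-1 234, Indy 94.3, Gli 18.7, Nrx-IV 8.11 and Nrg 17.4, all low, and loco 72.1, high. In repo-Gal4 control 3, moody measured 89.3 CPM, Gli 35.8, Nrx-IV 29.2 and Nrg 32.7, all low. Mdr65 and kune had no such value.

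The effects of glial and neuronal overexpression differed by edgeR's test of the difference in Mdr65, by 0.80 on the log2 scale, and in kune, by 0.35. For Mdr65 the glial overexpression libraries (160 to 215 CPM) lay above their 10 controls, and the neuronal ones (94.2 to 117 CPM) overlapped with the nSyb-Gal4 control and lay below the UAS control. For kune the neuronal overexpression libraries overlapped with both of their controls.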

How the results depend on the processing

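Counts of the 9 genes called moved most in the glia dataset, which called 1 against repo-Gal4, 1 against UAS and 1 against both. These became 0, 0 and 0 with no filter on low counts, 0, 0 and 0 with the replicate block, 6, 6 and 5 with the length slope as a covariate, 5, 5 and 5 without the 2 libraries low in long transcripts, 7, 5 and 5 with both of these changes, 2, 3 and 2 in DESeq2, and 4, 4 and 3 in the fit of all 6 groups. Against the mean of both controls it was 2. Leaving out 1 library gave 0 to 5, 0 to 4 and 0 to 4. Between the glia controls the 0 calls became 2 with the covariate, 1 without the 2 libraries and 2 with both. The share of all genes called moved as well. Without the 2 libraries it went from 0.484% to 6.35% against repo-Gal4 and from 1.13% to 17.2% against UAS. Against both it went from 0.161% to 3.97%, and between the glia controls from 0.888% to 4.35%. In DESeq2 the share against both was 0.709%. Called higher against both were 2.58% with the covariate and 1.25% with both changes. Shares for the other settings are not given here.

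In the neuron dataset, the 2 genes called against nSyb-Gal4, 4 against UAS, 4 between controls and 2 against both became 1, 1, 0 and 1 in the fit of all 6 groups; the covariate left 2 between controls, and median-ratio scaling 1 against both. Leaving out 1 library gave 2, 3 to 4, 2 to 4 and 1 to 2. The 2 differences between glial and neuronal effects became 1 with no filter, 1 with the replicate block, 7 with the covariate, 6 without the 2 libraries, 7 with both, and 2 to 5 with 1 library left out. Between the UAS controls 2 became 1 with median-ratio scaling, 1 with no filter, 4 with the covariate, 7 without the 2 libraries, 5 with both, and 0 to 2 with 1 library left out. In that comparison moody and Gli reversed from -0.15 and -0.05 to 0.14 and 0.19 without the 2 libraries, and Gli to 0.17 with both changes. For the septate junction list, 0 called against both glia controls became 8 with the covariate, 12 without the 2 libraries, 9 with both, 3 in DESeq2, 2 in the fit of all 6 groups and 0 to 2 with 1 library left out; in the neuron dataset 0 became 1 with the covariate and 0 to 1. The share of all genes called moved too. Without the 2 libraries it went from 1.1% to 34.2% for the difference between glial and neuronal effects. Between the UAS controls it went from 3.05% to 51.4%. Shares for the other settings of the 9 genes are not given here. The cause of these shifts was not tested.

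The labels do not say whether a replicate number marks a shared batch. Same-numbered libraries correlated over 0.1 in 8 of 15 glia pairs and 1 of 15 neuron pairs. Glia pairs of numbers 1 and 4 correlated at 0.23 to 0.59. The lowest glia values, -0.71 and -0.76, were repo-Gal4 and UAS pairs that hold UAS control 2 or repo-Gal4 control 3. These values do not settle whether the glia libraries are paired by number. With the block, Mdr65 in glial overexpression had adjusted p of 0.195 and 0.142 from edgeR, and kune's difference 0.0706. The block could not be fitted between the UAS controls, since its numbers lie within a dataset. Depth limited little, with at least 491 counts for each gene and library.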

Other observations

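Among the smooth septate junction genes Ssk, mesh, Tsp2A and hoka, known from gut and Malpighian tubule, hoka was called lower against both controls in both datasets by edgeR, and in the glia dataset also without UAS control 2 and repo-Gal4 control 3. The other 3 were called against both controls in neither dataset. Its level was 0.0302 ± 0.0497 CPM (SD, n = 5) in glial overexpression, with a library at 0 and at most 10 counts, against 1.52 ± 0.340 CPM in repo-Gal4 and 1.28 ± 0.438 CPM in UAS controls. With neuronal overexpression hoka stood at 0.119 ± 0.0230 CPM, with at most 8 counts, against 3.15 ± 0.747 and 2.602 ± 0.445 CPM. The overexpression libraries lay below all 10 controls in each dataset, as for 4% of all genes in the neuron dataset. The share for the glia dataset is not given here. Of all genes, edgeR called 5.43% lower against both controls in the neuron dataset. In the glia dataset it called 0.161% in either direction over all 15 libraries, and 1.01% lower without the 2 libraries.

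Of 4 muscle genes, 1 was lower in neuronal overexpression against both controls and 0 were higher, where 5.43% of all genes were lower. It was Mhc, at 3507 ± 508 CPM against 4786 ± 324 in nSyb-Gal4 and 4621 ± 285 in UAS controls (edgeR adjusted p = 0.00223 and 0.00259).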
